A study of Ovis aries with 30 samples.

Results

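Signalling through the receptors of prolactin and growth hormone (GH) was described in brown adipose tissue (BAT) and thyroid tissue of newborn Romney lambs. The set was fixed by name as 8 genes: the receptors PRLR and GHR, the kinase JAK2, the transcription factors STAT5A and STAT5B, and the feedback inhibitors SOCS2, SOCS3 and CISH. Of the 28524 genes in the count table, 6 were found by these names, and STAT5B was found through its gene identifier, as LOC101122961, so that 7 of the 8 members were measured. PRLR is not analysed here. All 7 passed the filter on low counts in both tissues. Of the 15 lambs, 6 were kept at 4 °C for 2 days (cold), 6 were kept at 20–22 °C for 2 days (AT, ambient temperature), and 3 were controls sampled at the start, within about a day of birth. Each lamb was the heavier of a twin pair and gave both tissues, the BAT being perirenal fat. At sampling, treated lambs had 2 more days of life than controls, so age and housing cannot be told apart in a comparison with controls, and cold against AT is the one contrast within an age. Whole pieces of tissue were sequenced, in which fewer cells of a type and less RNA per cell cannot be told apart.

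GHR and PRLR are receptors of the class I cytokine family that carry JAK2 on their intracellular part. Hormone binding activates JAK2, which phosphorylates STAT5A and STAT5B, and these enter the nucleus and switch on genes such as IGF1, SOCS2 and CISH. SOCS2, SOCS3 and CISH belong to the family of suppressors of cytokine signalling, which bind activated receptors or kinases and dampen the signal. SOCS3 is also induced through STAT3 by cytokines of the interleukin 6 family and by leptin, and prolactin receptors are known from the brown fat of late fetal and newborn sheep.

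The positions are those of the sheep genome Oar_rambouillet_v1.0 and span each gene's exons. GHR lies on chromosome 16 from 33625221 to 33923727 (minus strand, 12 exon blocks), and LOC114118741 on the opposite strand lies within its span. JAK2 lies on chromosome 2 from 78792745 to 78908743 (plus strand, 25 exon blocks). STAT5A (chromosome 11, 20725472 to 20745863, minus strand) and STAT5B (chromosome 11, 20756193 to 20821124, plus strand) are neighbours. These paralogs are similar in sequence, and since reads that map to several places were counted, they may share reads. SOCS3 lies elsewhere on chromosome 11 (9432794 to 9436054, minus strand), SOCS2 on chromosome 3 (139298423 to 139303587, plus strand) and CISH on chromosome 19 (51737581 to 51743044, plus strand). These 3 inhibitor genes are short, with 2 or 3 exon blocks each.

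A BAT library held 31556500 to 37025998 counts and a thyroid library 25062784 to 30124871. Values are normalized counts, that is counts divided by a size factor of the library taken from ACTB, RPL19 and HUWE1, and they are comparable between lambs of one tissue. Controls 1 and 2 are the lambs the paper used, and the third control, left out there for outlier counts, is given beside them. The 10 thyroid follicular markers summed to at least 1352560 in every thyroid library and to at most 1590.0 in BAT. The 7 measured brown adipocyte markers had reads in every library of both tissues. Their sum in BAT was 1620.1 (AT 6) to 18859 in treated lambs and 25087 to 93603 in controls, and in thyroid tissue it was 1059 to 3303 apart from the third control, on a scale that is not that of BAT. The thyroid library of the third control stood apart with sums of 12834 for brown adipocyte, 58427 for adipocyte and 9381 for parathyroid markers, against at most 3303, 19106 and 1275 in the other 14. Skeletal muscle genes stood apart in 2 thyroid libraries. Their sum over 9 genes was 3489590 in AT 3 and 302434 in Control 1, against 144 to 4129 in the other 13 thyroid libraries, and 120.1 to 496 in BAT. Members that were high in these libraries are given with and without them, the third control then being added.

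SOCS3 was downregulated in thyroid tissue of cold and of AT lambs against controls, and it was the only member called there in either comparison. In cold lambs that call was lost when the third control replaced Control 1. In BAT, 11 of 12 treated lambs had less SOCS3 than all 3 controls, and the calls depended on which controls were used. Cold lambs and all 3 controls did not overlap for 13.4% of all tested BAT genes. GHR, SOCS2, STAT5A and STAT5B were higher in BAT than in thyroid tissue. No member was called between cold and AT lambs in either tissue. A gene was called at an adjusted p under 0.05 with a log2FC of at least 1 in size, by edgeR's quasi-likelihood test.

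**Figure D1:**
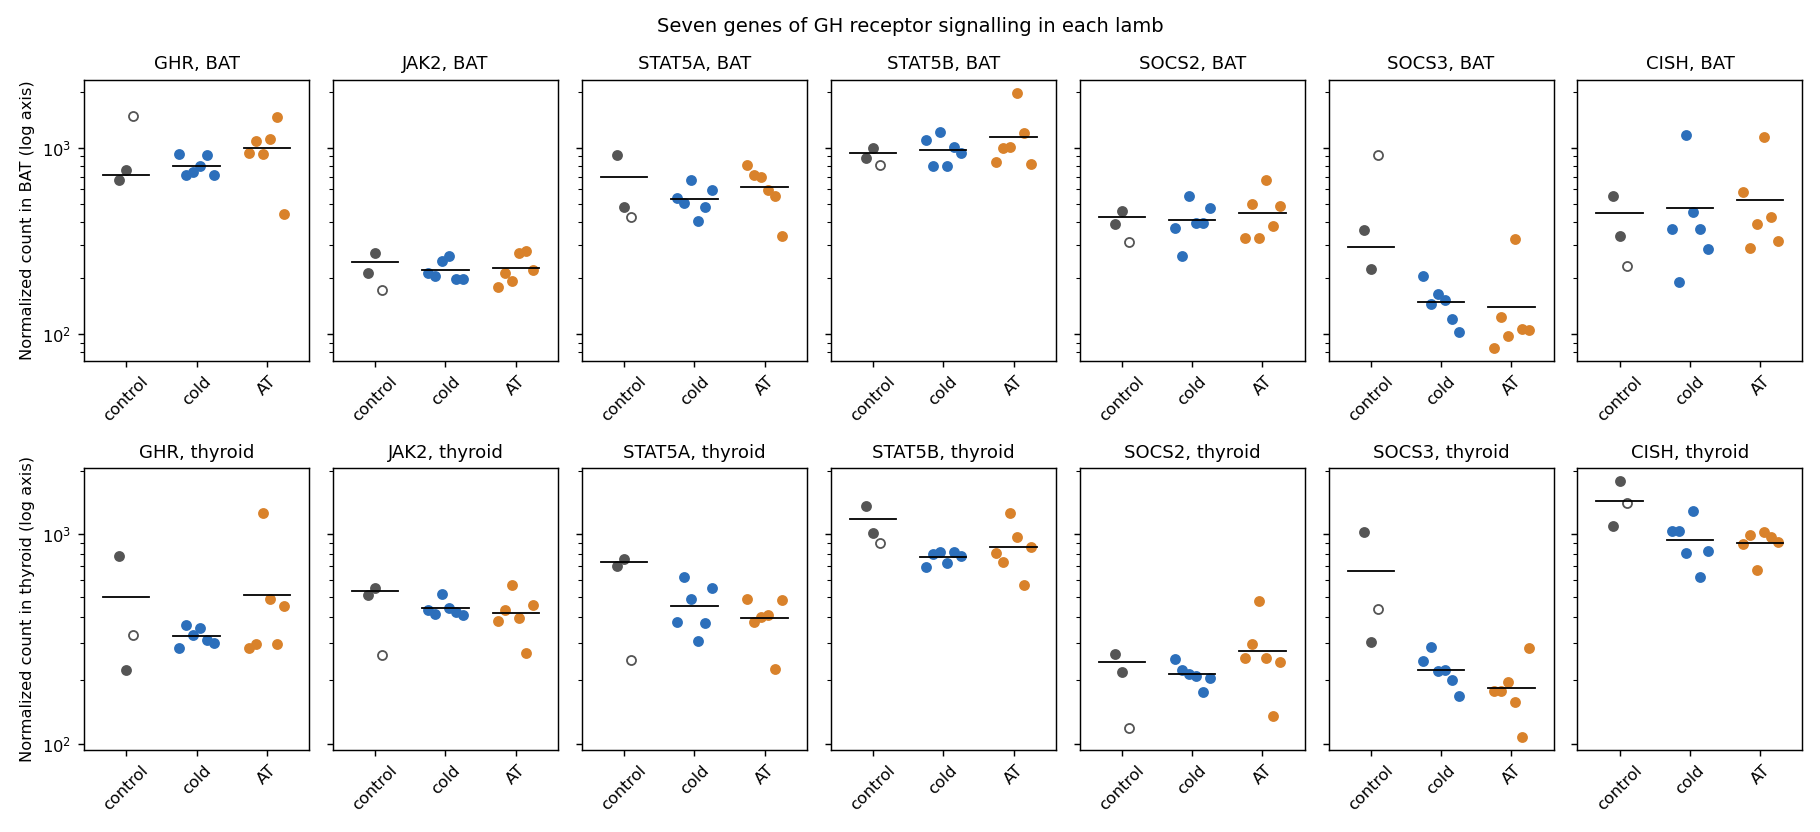
Normalized counts (log axis) of the 7 measured genes in BAT (top) and thyroid tissue (bottom) of each lamb, for controls (grey), cold lambs (blue) and AT lambs (orange). Open circles are the third control and bars are group means without it. SOCS3 of all 12 treated lambs lies below all 3 controls in thyroid tissue, and in BAT of 11 of 12.

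The hormones themselves were barely detected as transcripts. PRL, which encodes prolactin, had 3, 7, 24, 11, 26 and 31 counts in BAT of Cold 1 to 6, and 10, 11, 6, 12, 5 and 13 in BAT of AT 1 to 6. Controls 1 and 2 had 1 and 8 counts and the third control had 0. The thyroid libraries held 0 or 1 count of PRL, and GH had 0 to 3 counts in any library. Both lay below the filter and were not tested. Reads of PRL were thus seen in BAT of every treated lamb, with the highest counts in 3 cold lambs.

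GHR, the GH receptor, had normalized counts in BAT with a lowest value of 717, a median of 769 and a highest of 922 in cold lambs, and of 440.3, 1015 and 1465 in AT lambs. The controls had 676 and 761, and the third control had 1484, the highest value of all. The groups overlapped, with AT 6 lowest. AT 6 also had the lowest sums of brown adipocyte markers (1620.1) and adipocyte markers (34461), and the third control the highest (93603 and 332144). GHR and these sums are divided by the same size factor, which was highest in AT 6 (1.83) and lowest in the third control (0.466). Before this division GHR had 806 counts in AT 6 and 691 in the third control, in a BAT range of 492 to 1247. The part of these markers and of the size factor in the GHR values was not tested. The log2FC of GHR in BAT was 0.16 ± 0.30 (SE) for cold and 0.47 ± 0.30 for AT against control, and -0.31 ± 0.21 for cold against AT (95% CI -0.76 to 0.13). None passed the test, with edgeR's adjusted p at 0.828, 0.347 and 0.548, and with all 3 controls the log2FC of cold against control turned to -0.23.

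In thyroid tissue, GHR spanned 284 to 367 (median 322) in cold lambs and 286 to 1253 (median 376) in AT lambs. The controls had 780.2 and 223, and the third 328. The values of 1253 and 780.2 are those of AT 3 and Control 1, the libraries rich in muscle genes, and without them every thyroid library lay between 223 and 491. GHR changed by -0.63 ± 0.51 in cold and 0.03 ± 0.53 in AT lambs against control, and by -0.66 ± 0.37 in cold against AT (95% CI -1.45 to 0.14, edgeR's adjusted p = 0.922). With AT 3 and Control 1 left out and the third control added, these became 0.24, 0.42 and -0.18, again not called. The interval of cold against AT with all these libraries includes 0 and reaches beyond a log2FC of -1. Without AT 3 and Control 1 the SE of this log2FC was 0.19 in place of 0.37.

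**Figure D2:**
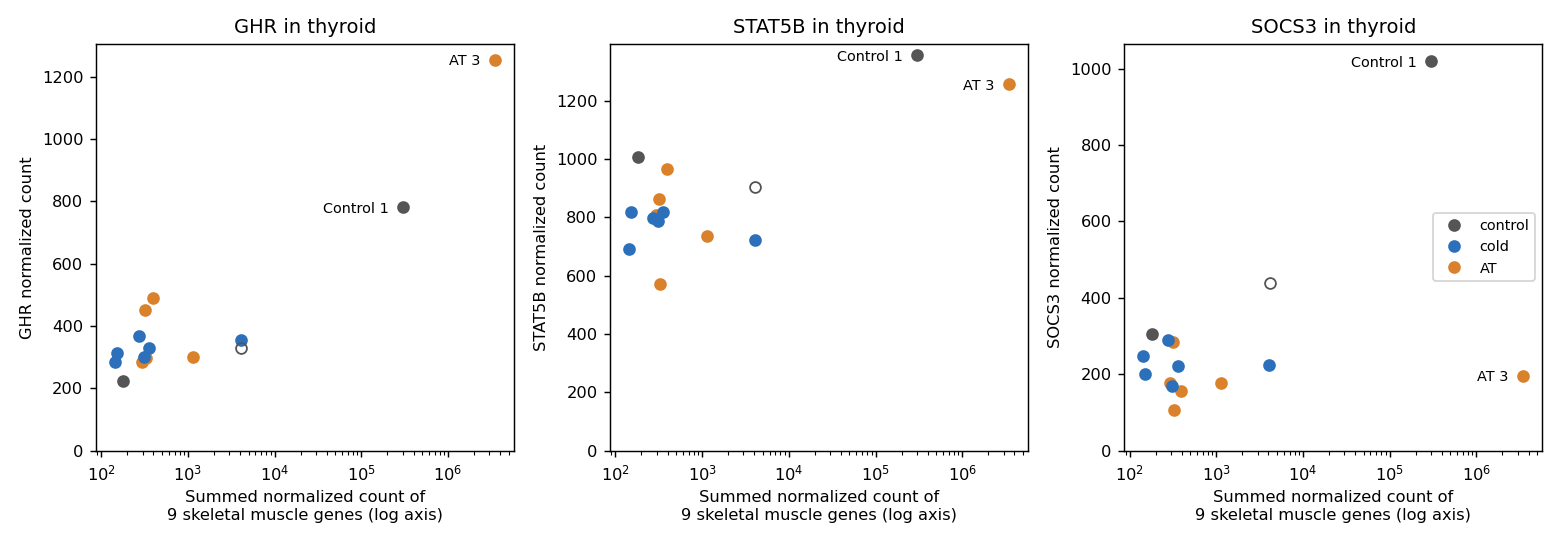
Normalized counts of GHR, STAT5B and SOCS3 in each thyroid library against the summed normalized count of 9 skeletal muscle genes (log axis), for controls (grey, open for the third control), cold (blue) and AT lambs (orange). AT 3 (sum 3489590) and Control 1 (sum 302434) are highest for GHR and STAT5B, while SOCS3 of AT 3 (196) lies among the other treated lambs.

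JAK2 is the kinase that both receptors share. In BAT it spanned 198 to 261 in cold lambs (median 208), 178 to 280.003 in AT lambs (median 216) and 172 to 273 in the 3 controls. In thyroid tissue it spanned 412 to 515 in cold lambs (median 429), 269 to 571 in AT lambs (median 415) and 264 to 553 in the 3 controls. The groups overlapped in both tissues and no comparison within a tissue called it, with the 95% CI of cold against AT at -0.35 to 0.28 on the log2 scale in BAT and -0.25 to 0.40 in thyroid tissue. The highest thyroid value was that of AT 3, and without AT 3 and Control 1 the log2FC of JAK2 was 0.11 in cold and -0.06 in AT lambs against control in place of -0.27 and -0.35, none of which passed.

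STAT5A and STAT5B carry the signal to the nucleus. STAT5A in BAT spanned 405 to 674 in cold lambs (median 522) and 334 to 813 in AT lambs (median 645), against 914, 482 and 425 in the 3 controls. STAT5B in BAT spanned 798 to 1210 in cold lambs (median 975) and 816 to 1983 in AT lambs (median 1008), against 886, 1002 and 809 in the controls. Both overlapped between groups. The highest STAT5B value belonged to AT 4, next below which was 1210. The log2FC of STAT5A was -0.39 ± 0.29 for cold and -0.18 ± 0.29 for AT against control (edgeR's adjusted p = 0.511 and 0.744).

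In thyroid tissue, STAT5A spanned 309 to 624 in cold lambs (median 434) and 227 to 491 in AT lambs (median 406), all below Controls 1 and 2 at 705 and 759. The third control had only 249, lower than 11 of the 12 treated lambs. STAT5B spanned 692 to 819 in cold lambs (median 792) and 572 to 1256 in AT lambs (median 835), against 1355, 1007.1 and 905 in the controls. The cold lambs lay below all 3 controls, while AT 3 and AT 4 lay above the lowest control. The log2FC of STAT5A was -0.69 ± 0.28 for cold and -0.88 ± 0.27 for AT against control, and that of STAT5B was -0.61 ± 0.22 and -0.45 ± 0.22. By edgeR's quasi-likelihood test, the adjusted p was 0.0906 and 0.0357 for STAT5A and 0.0619 and 0.157 for STAT5B, so that STAT5A in AT lambs passed the adjusted p but not the threshold of size. These values rested on the choice of controls. With all 3, STAT5A was at -0.33 and -0.52 (edgeR's adjusted p = 0.508 and 0.282) and STAT5B at -0.50 and -0.33. Replacing Control 1 by the third gave -0.15 and -0.33 for STAT5A and -0.30 and -0.13 for STAT5B. Replacing Control 2 gave -0.08 and -0.26 for STAT5A, while STAT5B stayed at -0.55 and -0.38. Without AT 3 and Control 1, STAT5A was at -0.15 and -0.33 (edgeR's adjusted p = 0.822 and 0.587) and STAT5B at -0.30 and -0.26, and with AT 3 alone left out STAT5B was at -0.59 in AT lambs (edgeR's adjusted p = 0.0215). The median log2FC of all 16122 tested thyroid genes was -0.28 in each comparison with controls, and near 0 with TMM scaling (0.02 and 0.05). With that scaling STAT5A was at -0.40 and -0.55 and STAT5B at -0.34 and -0.16, none of which passed.

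Of the inhibitors, SOCS2 showed no difference that passed within a tissue. It spanned 263 to 554 in BAT of cold lambs (median 397), 326 to 669 in AT lambs (median 435) and 311 to 459 in the 3 controls. In thyroid tissue it spanned 176 to 253 in cold lambs (median 212), 136 to 476 in AT lambs (median 255) and 119 to 267 in the 3 controls, with the highest value in AT 3. Without AT 3 and Control 1 the log2FC of thyroid SOCS2 was 0.34 in cold and 0.50 in AT lambs against control, in place of -0.19 and 0.19, and cold against AT was at -0.16 in place of -0.37, none of which passed. The 95% CI of cold against AT was -0.56 to 0.29 on the log2 scale in BAT and -0.87 to 0.12 in thyroid tissue.

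CISH is an inhibitor and a known STAT5 target. In BAT it spanned 190.2 to 1176 in cold lambs (median 368) and 289 to 1143 in AT lambs (median 408), against 555, 335 and 232 in the controls. A single lamb stood high in each treated group, Cold 3 at 1176 and AT 4 at 1143, and the next highest treated lamb had 581. With this spread, the 95% CI of cold against AT in BAT ran from -1.06 to 0.75 on the log2 scale. In thyroid tissue CISH spanned 624.8 to 1278 in cold lambs (median 929) and 674 to 1022 in AT lambs (median 937), against 1092, 1781 and 1405 in the controls. All AT lambs and 5 of 6 cold lambs lay below all 3 controls. The log2FC of CISH was -0.62 ± 0.24 for cold and -0.66 ± 0.24 for AT against control (edgeR's adjusted p = 0.0797 and 0.0601), and -0.30 in both with TMM scaling, which centres the genes near 0. Without AT 3 and Control 1 it was -0.77 and -0.72 (edgeR's adjusted p = 0.0194 and 0.0313), under the threshold of size.

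SOCS3 carried the clearest difference. In thyroid tissue it had 247, 289, 222, 225, 200.2 and 168 normalized counts in Cold 1 to 6, and 178, 177, 196, 157, 107 and 284 in AT 1 to 6. Controls 1 and 2 had 1019 and 306, and the third control had 438. All 12 treated lambs were below all 3 controls, the nearest being Cold 2 at 289 against 306. The controls differed from each other by more than the treated lambs did. Of all tested thyroid genes, 16.2% (cold) and 12.6% (AT) did not overlap with the 3 controls. SOCS3 was downregulated with a log2FC of -1.56 ± 0.36 in cold lambs and -1.85 ± 0.36 in AT lambs against control (edgeR's adjusted p = 0.0107 and 0.00387). TMM scaling gave -1.35 and -1.61 (edgeR's adjusted p = 0.0432 and 0.0213). Control 1 is the highest control and rich in muscle genes. Replacing it by the third control gave -0.72 in cold lambs, no longer called (edgeR's adjusted p = 0.125), and -1.01 in AT lambs (edgeR's adjusted p = 0.0343). Over the alternatives, DESeq2 included, the adjusted p lay between 0.00154 and 0.125 for cold lambs and between 0.00011 and 0.0345 for AT lambs. Markers of other cells moved in the same comparisons. Of 6 endothelial markers, PECAM1 (-1.30) and CDH5 (-1.0004) were downregulated in cold lambs and PECAM1 (-1.25) in AT lambs, and the endothelial sum was 11827 to 16567 in cold lambs, 9524 to 21358 in AT lambs and 10210 to 31093 in the 3 controls. Of 7 immune markers tested, C1QA of macrophages (2.98 and 2.19) was upregulated in both, CSF1R (1.41) in cold lambs, and CD14 was downregulated in AT lambs, with an immune sum of 1809 to 4099.9, 1649 to 3806 and 1504 to 1655. The part of these in the SOCS3 values was not tested.

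In BAT, SOCS3 had 206, 145, 164, 153, 120.0 and 102 normalized counts in Cold 1 to 6, and 83.7, 123, 97.1, 323, 106 and 105 in AT 1 to 6. The controls had 362 and 222, and the third control had 910.3. Every treated lamb except AT 4 was below all 3 controls. The log2FC was -0.98 ± 0.41 in cold and -1.06 ± 0.41 in AT lambs against control, and neither was called (edgeR's adjusted p = 0.211 and 0.112). With all 3 controls the values were -1.71 ± 0.43 and -1.78 ± 0.43 and both were called (edgeR's adjusted p = 0.0299 and 0.0169), as they were when the third control took the place of Control 1 or Control 2. The BAT library of the third control had marker sums of 332144 (adipocyte) and 14009.5 (endothelial). Control 1 had 100945 and 49894, and Control 2 had 101581 and 45762. Its size factor was the lowest in BAT (0.466), and it had 424 SOCS3 counts before scaling, against 269 and 283. The part of these in its SOCS3 value was not tested. Leaving out AT 4 gave -1.46 for AT against control, which was called (edgeR's adjusted p = 0.00744). Over the alternatives the adjusted p lay between 0.011 and 0.328 for cold lambs and between 0.00431 and 0.191 for AT lambs.

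**Figure D3:**
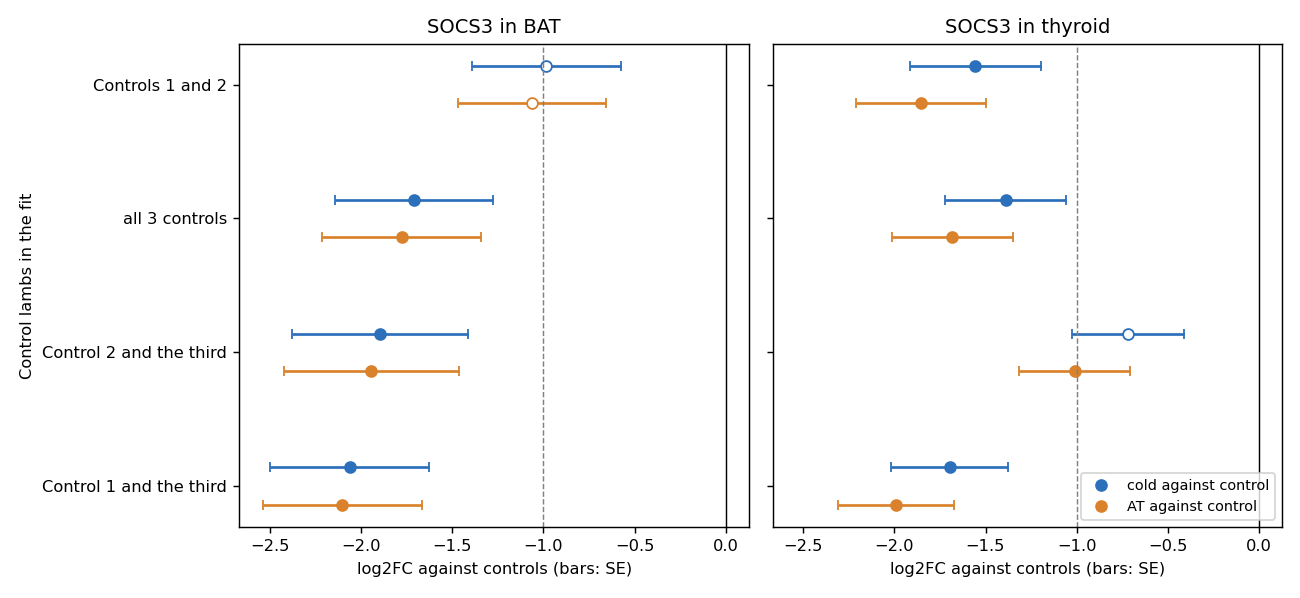
Log2FC of SOCS3 against controls in BAT (left) and thyroid tissue (right) with each choice of control lambs, for cold (blue) and AT lambs (orange). Bars are SE, filled points were called and open points were not, and the dashed line marks a log2FC of -1. All 16 values are negative, from -2.10 to -0.72, and replacing Control 1 by the third control lowers them in BAT and raises them in thyroid tissue.

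Between cold and AT lambs SOCS3 did not pass the test, with a log2FC of 0.08 ± 0.31 in BAT (95% CI -0.57 to 0.73) and 0.30 ± 0.27 in thyroid tissue (95% CI -0.29 to 0.88). Within a library, the ratio of SOCS3 to SOCS2 counts needs no size factor. In thyroid tissue it was 0.815 to 1.30 in cold lambs and 0.412 to 1.16 in AT lambs, below its values of 1.39, 3.68 and 3.81 in the 3 controls. In BAT it was 0.214 to 0.558 in cold lambs and 0.215 to 0.482 in AT lambs, and 0.485, 0.934 and 2.92 in the controls. Against the controls, SOCS3 was therefore low relative to SOCS2 in all thyroid libraries of treated lambs and, in BAT, in all but Cold 1 and Cold 2.

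Across the 7 members, the counts of calls were set against all tested genes. In BAT, edgeR called 0 of 7 in cold against control, where 1.21% of all tested genes were called, 0 of 7 in AT against control (6.07% of all genes) and 0 of 7 in cold against AT (0.275% of all genes). At an unadjusted p under 0.05 these were 1, 1 and 0, the gene being SOCS3 (18.1%, 26% and 12.3% of all genes), and DESeq2's Wald test called 0 in each. In thyroid tissue, 1 of 7 was called in cold against control (8.04% of all genes) and 1 of 7 in AT against control (7.8% of all genes), with 4 and 3 at an unadjusted p under 0.05 (35.5% and 36.5% of all genes). DESeq2 also called 1 in each. In cold against AT, 0 of 7 were called in thyroid tissue (0% of all genes), 0 at an unadjusted p under 0.05 and 0 by DESeq2. The median log2FC of the members was -0.62 and -0.45 in thyroid tissue of cold and AT lambs against control, and -0.05 and 0.08 in BAT, where the median of all genes was -0.10 and -0.03. Treated lambs and Controls 1 and 2 did not overlap for 3 of 7 members in thyroid tissue in each comparison, and for 2 of 7 with the third control added. Of all thyroid genes, 34.6% (cold) and 27.3% (AT) did not overlap with Controls 1 and 2, and 16.2% and 12.6% with the third added. With all 3 controls the members were STAT5B and SOCS3 in cold lambs and SOCS3 and CISH in AT lambs. In BAT, 1 of 7 did not overlap in cold lambs (SOCS3) and 0 of 7 in AT lambs, with either set of controls. Of all BAT genes, 24.6% (cold) and 24.3% (AT) did not overlap with Controls 1 and 2, and 13.4% and 13.5% with the third added. In each tissue, both comparisons share their controls.

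The level of the pathway in BAT and thyroid tissue was compared in the 12 treated lambs in one fit of both tissues. GHR was higher in BAT by a log2FC of 2.51 ± 0.23 (edgeR's adjusted p = 2.9e-10), SOCS2 by 2.21 ± 0.16 (2.2e-12), STAT5A by 1.83 ± 0.15 (1.9e-11) and STAT5B by 1.76 ± 0.14 (5.7e-12). These 4 were higher in BAT than in thyroid tissue of the same lamb in 14 of 14 lambs, controls included. SOCS3 at 0.90 ± 0.22 and JAK2 at 0.45 ± 0.11 passed the adjusted p (5.6e-04 for each) but not the threshold of size, and each was higher in BAT in 13 of 14 lambs. CISH, at 0.50 ± 0.24 (edgeR's adjusted p = 0.0633), was higher in BAT in 7 of 14. So 4 of 7 members were called, all higher in BAT, where 40.6% of all genes were called and the median of all genes was 0.34 (0.10 with TMM scaling). The direction held under every scaling. Over the alternatives JAK2 fell to 0.06 (edgeR's adjusted p up to 0.500), SOCS3 to 0.47 and CISH to 0.05. With TMM scaling GHR was at 2.28, SOCS2 at 1.97, STAT5A at 1.58 and STAT5B at 1.498, and no member lost or gained a call. Without AT 6, SOCS3 reached 1.001 and was called as well, which made 5 of 7.

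Divided by the length of each gene's exons, and with both tissues on one scale, levels can be ordered between genes. In BAT of the 12 treated lambs the normalized count per kilobase was 408 ± 263 (SD, n = 12) for CISH, 338 ± 81.1 for STAT5A, 336 ± 105 for STAT5B, 330 ± 87.7 for SOCS2, 314 ± 87.8 for GHR, 87.0 ± 40.6 for SOCS3 and 52.4 ± 8.09 for JAK2. Neighbours in this order differed by less than the larger of their SDs, except GHR and SOCS3. In thyroid tissue CISH led with 287 ± 56.5, and the others followed at 99.02 ± 21.5 for STAT5B, 94.9 ± 22.4 for STAT5A, 72.0 ± 25.9 for SOCS2, 56.1 ± 37.7 for GHR, 46.9 ± 11.7 for SOCS3 and 38.4 ± 6.79 for JAK2. There, CISH alone stood apart from its neighbour by more than the SD. The 5 genes from CISH to GHR were thus at like levels in BAT, whereas in thyroid tissue CISH was far above the receptor and both STAT5 genes.

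**Figure D4:**
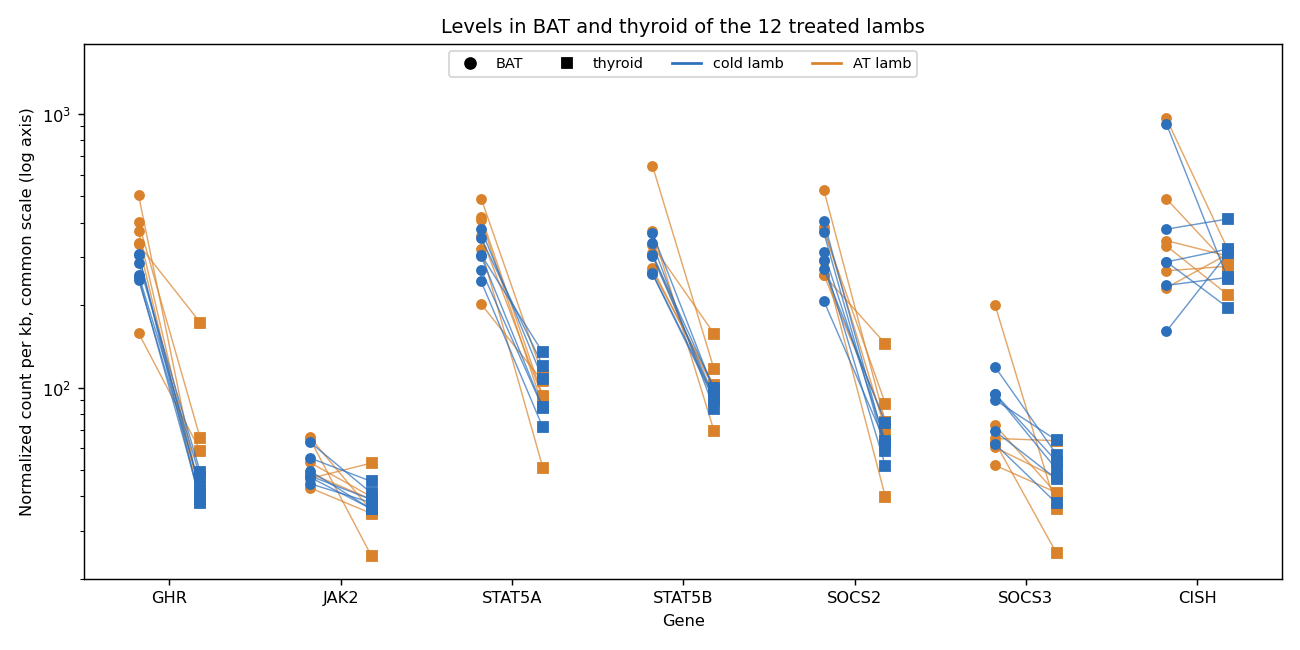
Normalized counts per kilobase on a scale common to both tissues (log axis) in BAT (circles) and thyroid tissue (squares) of the 12 treated lambs, with lines joining the tissues of a lamb (blue cold, orange AT). GHR, STAT5A, STAT5B and SOCS2 are higher in BAT in every lamb, CISH is not.

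Whether the tissues differed in their response was tested as an interaction. In cold against control, 0 of 7 members were called (0.188% of all genes), in AT against control 0 of 7 (1.62% of all genes) and in cold against AT 0 of 7 (0% of all genes). By edgeR, 0 members had an unadjusted p under 0.05 in each, and no other tool was run. For SOCS3 the log2FC in BAT minus that in thyroid tissue was 0.60 ± 0.60 for cold (95% CI -0.64 to 1.83) and 0.84 ± 0.60 for AT against control (95% CI -0.40 to 2.07). With all 3 controls the sign turned, to -0.33 and -0.065. A difference of SOCS3 between the tissues was not shown.

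A list of 54 other genes of the pathway was taken as a whole, covering ligands, other JAK, STAT and SOCS genes, phosphatases and adaptors, STAT5 targets, and receptors and ligands of the gp130 and leptin branch. In BAT, 45 were tested. In cold against control 0 were upregulated and 1 was downregulated, CCND1, which encodes cyclin D1 (-1.23 ± 0.22, edgeR's adjusted p = 0.0153), with a log2FC of -0.99 with all 3 controls and of -0.91 or -0.88 with Control 1 or Control 2 replaced by the third, under the size threshold. In AT against control CCND1 (-1.42 ± 0.21, edgeR's adjusted p = 0.00212) and BCL2L1, an inhibitor of cell death (-1.34 ± 0.28, 0.0103), were downregulated. IGF1, the growth factor induced by GH, was upregulated (1.53 ± 0.47, edgeR's adjusted p = 0.0498). This call was lost with all 3 controls (1.14, edgeR's adjusted p = 0.0845) and with Control 1 or Control 2 replaced by the third (1.06 and 0.91). It was also lost without AT 4, AT 5 or AT 6 (1.46, 1.36 and 1.45). No filter, 2 groups only and the RNA integrity number as covariate ended it too (edgeR's adjusted p = 0.0583, 0.0737 and 0.0562). Of all tested BAT genes, 1.21% were called in cold and 6.07% in AT lambs against control. The median log2FC of the list was -0.18 and -0.21, and that of all tested genes was -0.10 and -0.03.

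In thyroid tissue, 44 of the 54 were tested, with a median log2FC of -0.47 in cold and -0.53 in AT lambs against control. The median of all tested thyroid genes was -0.28 in each. STAT3, the factor downstream of gp130 and leptin receptors, was downregulated (-1.005 ± 0.18 in cold and -1.06 ± 0.18 in AT, edgeR's adjusted p = 0.00375 and 0.00244). Its log2FC came under the size threshold without Cold 4, Cold 5 or Control 2 in cold lambs (-0.97, -0.96 and -0.97) and without AT 5 in AT lambs (-0.97), at an adjusted p under 0.05. IRS2, an adaptor of insulin and cytokine receptors, was downregulated too (-1.21 ± 0.26 and -1.59 ± 0.26, 0.00815 and 0.00181). Its relative IRS1 (-1.76 ± 0.46 and -1.84 ± 0.46, edgeR's adjusted p = 0.0200 and 0.0144) rested on Control 2, with values of -0.50 and -0.58, not called, when the third control took its place. OSMR, a receptor of oncostatin M, was downregulated in cold lambs alone among the calls (-1.29 ± 0.40, edgeR's adjusted p = 0.0357), a call lost without Cold 5, Cold 6 or Control 1 (-1.30, -1.21 and -1.15), and cold against AT was not called. IGF1 was upregulated (1.28 ± 0.39 and 1.46 ± 0.40, edgeR's adjusted p = 0.0356 and 0.0192), calls that were both lost with all 3 controls (0.86 and 1.05, edgeR's adjusted p = 0.105 and 0.0559) and with Control 1 (0.86 and 1.05) or Control 2 (0.54 and 0.73) replaced by the third. In cold lambs the call was also lost without Cold 1, 2, 3 or 5 (1.24 to 1.27). In AT lambs it was lost with 2 groups only (1.45, edgeR's adjusted p = 0.0883). Without AT 3 and Control 1 both calls of IGF1 were lost (0.86 and 0.84, edgeR's adjusted p = 0.120 and 0.136). In all, 1 gene was upregulated and 4 were downregulated in cold lambs, and 1 and 3 in AT lambs, near the shares of all thyroid genes called (8.04% and 7.8%). With TMM scaling several of these calls were lost. STAT3 was at -0.70 and -0.72, IRS2 in cold lambs at -0.93 and OSMR at -1.04 (edgeR's adjusted p = 0.116), and IRS1 was at -1.38 and -1.44 (0.0614 and 0.0521). Median-of-ratios size factors also ended the calls of STAT3 in both (-0.71 and -0.74), and of IRS1 (-1.40), IRS2 (-0.94) and OSMR (-1.04) in cold lambs. With 2 groups only and with the RNA integrity number as covariate, STAT3 of cold lambs came under the size threshold (-0.98 and -0.999). No filter ended the call of OSMR (edgeR's adjusted p = 0.0504), and 2 groups only that of IRS1 in AT lambs (edgeR's adjusted p = 0.0777). Between cold and AT lambs 0 of the list were called in either tissue by edgeR (0.275% of all genes in BAT and 0% in thyroid tissue).

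Between the tissues, 16 of 45 tested genes of the list were higher in BAT and 1, SOCS1, was lower (-1.58 ± 0.24, edgeR's adjusted p = 1.2e-06), with a list median of 0.54, and 40.6% of all genes were called in this comparison. Of the STAT5 targets, IGFBP3 (3.61 ± 0.31), IGF1 (2.51 ± 0.22) and CCND2 (1.41 ± 0.16) were the largest differences of 5 higher in BAT. Of the gp130 and leptin branch, 4 were higher in BAT, led by LEP, which encodes leptin (5.72 ± 0.51), OSMR (2.47 ± 0.26) and LIF (2.15 ± 0.35). The kinases JAK3 (1.46 ± 0.18) and TYK2 (1.15 ± 0.12), the factors STAT4 (1.19 ± 0.22) and STAT6 (1.01 ± 0.08), and SH2B3 (1.38 ± 0.10), SHC1 (1.05 ± 0.11) and ADAM17 (1.57 ± 0.11), the enzyme that sheds the GH receptor, were the others. Of these, TYK2, STAT4, STAT6 and SHC1 fell under the size threshold with TMM scaling (0.87, 0.92, 0.75 and 0.79), and STAT6 also without Cold 4, Cold 6 or AT 4 (0.99, 0.999 and 0.96).

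How far the members varied together was described over the 14 libraries of a tissue on TMM-scaled log2 CPM values. In BAT, the genes most like GHR were C1H1orf122 (Pearson's r = 0.916), HOGA1 (0.899) and NFU1 (0.899). In thyroid tissue CNTFR (0.946) and PLA2G7 (0.917) were among them, where GHR was high in AT 3 and Control 1. GHR and STAT5B gave r = 0.799 in thyroid tissue and 0.335 in BAT, and GHR and SOCS2 gave 0.696 and -0.33. In normalized counts, AT 3 and Control 1 were the highest thyroid libraries for GHR and STAT5B, and AT 3 for SOCS2. The r without these libraries was not computed. JAK2 and STAT5A gave -0.81 in BAT and 0.377 in thyroid tissue. These libraries share scaling factors and groups, and the values are descriptions without a test.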

How the data were processed

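RNA of 15 BAT and 15 thyroid libraries was measured. The authors trimmed reads with Trimmomatic (version 0.39), aligned them with STAR (version 2.7.7a) to Oar_rambouillet_v1.0 and counted them with featureCounts of Subread (version 2.0.0), multimapping reads included. What they deposited are raw counts, not normalized. The strand setting is not given in the sources used here, so GHR and the gene within its span may share reads. The p-values measure the spread between lambs. In the main fit of both tissues, the BAT and thyroid libraries of a lamb were treated as independent. With the lamb as block, edgeR's adjusted p of GHR between the tissues was 4.6e-08.

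Counts were tested with edgeR 4.0.16 in R 4.3.3 (quasi-likelihood, robust, 2-sided, Benjamini-Hochberg over all tested genes), with DESeq2 1.42.0 size factors from the 3 reference genes. The filter kept genes that reached 10 reads in 10 or more libraries, 14905 in BAT, 16122 in thyroid tissue and 17021 in the fit of both. Normalized counts of the third control were put on the scale of the others. SE is the log2FC over the square root of F. The 3 groups of a tissue shared one fit, with the 2 controls whose counts are proportional to the paper's normalized values. Chromosome numbers were read from where most shared symbols lie in RefSeq (ARS-UI_Ramb_v3.0), which also names LOC101122961 as STAT5B. No sequences are printed. Scripts were tested on simulated data.

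The members and lists were chosen with earlier results of these data known. Named genes are all members, of the pathway lists at most the 3 called genes of largest |log2FC| a list and comparison, and the 3 genes most like GHR in each tissue, of which 1 is not reported here. A lamb gave both tissues, which pairs them by lamb number. Deviations of both tissues from their group means correlated by -0.03 to 0.36 across 13544 genes (median 0.18, 14 lambs). Alternatives were TMM and median-of-ratios scaling, DESeq2's Wald test, all 3 controls, no filter, 2 groups only, the RNA integrity number as covariate, the adjusted p alone, each lamb left out (a control replaced by the third) and the lamb as replicate block. After seeing the data, 2 were added: all 3 controls with TMM scaling, and thyroid AT 3 and Control 1 left out.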

Additional observations from a re-analysis of the deposited data

Results flagged for a closer look

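Within groups of 6 lambs, single lambs stood far from the others in 7 of 28 groups of a member, tissue and treatment, by Dixon's criterion on the gap to the nearest lamb. The criterion flags about 1 in 20 groups of independent, normally distributed values. These groups share libraries and size factors, so that share cannot be set against the 7 of 28. GHR in thyroid tissue of AT 3 was 1253 normalized counts against 286 to 491 in the other AT lambs, and CISH of the same library was low, at 674 against 893 to 1022. In BAT, AT 4 was high for STAT5B (1983 against 816 to 1196), SOCS3 (323 against 83.7 to 123) and CISH (1143 against 289 to 581). BAT of Cold 3 was high for CISH (1176 against 190.2 to 450), and thyroid tissue of Cold 3 for JAK2 (515 against 412 to 443). Thyroid AT 3 was rich in muscle genes, as given above. BAT of AT 4 had a skeletal muscle sum of 347, the highest of the treated lambs in BAT and inside the range of the controls (270.3 to 496), and a brown adipocyte sum of 4930. The part of these in the values was not tested.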

How the results depend on the processing

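Of 950 values of log2FC under an alternative, for 56 values of the text, 847 kept direction and call, 68 lost a call, 12 gained one and 23 turned in sign. For members, the calls that changed were those of SOCS3, and of STAT5A when the adjusted p alone was used, which gave 2 members called in thyroid tissue of AT lambs. The count of members called in BAT was 1 in place of 0 in cold and in AT against control with all 3 controls, also with TMM scaling, and in AT against control with median-of-ratios size factors. Without single lambs it was 0 to 1 in both. In thyroid tissue of cold lambs against control it was 0 to 1 without single lambs, and 0 with AT 3 and Control 1 left out. Among these 56, signs turned only for values that had not passed the test. JAK2 and SOCS2 within a tissue and CISH in BAT were not among them, and their signs turned as well. Without AT 3 and Control 1, for example, thyroid JAK2 and SOCS2 of cold lambs against control were at 0.11 and 0.34. GHR in BAT was -0.23 (cold) with all 3 controls, -0.37 (cold) and -0.13 (AT) with TMM scaling added, -0.44 to 0.21 (cold) and -0.11 to 0.60 (AT) without single lambs, and in thyroid tissue 0.24 (cold) without AT 3 and Control 1, and -0.77 to 0.24 (cold) and -0.47 to 0.90 (AT) without single lambs. STAT5A in BAT was 0.10 (AT) with all 3 controls, and -0.44 to 0.28 (cold) and -0.26 to 0.52 (AT) without single lambs. SOCS3 in BAT was -0.036 to 0.53 in cold against AT without single lambs. Its difference between the tissues was -0.33 (cold) and -0.065 (AT) with all 3 controls, and -1.15 to 0.65 and -0.88 to 1.05 without single lambs. The cause was not tested. The lamb as replicate block changed 0 of the 23 calls it was run for, with GHR at 2.598 in BAT against thyroid tissue and 4 members called. With 2 controls, 1 lamb could decide a comparison with controls. All 7 members had reads in every library, and what depth limits was not tested.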
